A study of Mus musculus with 5 samples.

Results

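The genes described here build, cut, cap and bundle actin filaments, the fibres that push out the dendrites of Langerhans cells and let these cells crawl. They were taken as a list of 37 mouse gene symbols, among 27179 genes counted: both cytoplasmic actins, 6 genes of the actin monomer pool and its turnover, 9 of the Arp2/3 complex and its coronins, 3 nucleation promoting factors, 4 capping proteins, 4 bundling or elongation proteins, 3 myosins, 4 pleckstrin or membrane linker genes and 2 small GTPases. All 37 symbols were matched. Expression was measured by RNA sequencing in Langerhans cells, macrophage-related cells that live in the epidermis and present antigen. They had been purified from skin of 1-week-old mice on the C57BL/6 strain. The animals carried a conditional knockout of Suz12 (Suz12 cKO, 3 libraries) or were wild type (2 libraries), and each library was made from 5000 cells. The Suz12 protein belongs to Polycomb repressive complex 2, which places a repressive methyl mark on histone H3. The Cre line behind the conditional deletion is not given in the sources used here.

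Actin exists as free monomers and as filaments. Profilin and thymosins bind monomers, cofilin severs old filaments, and the Arp2/3 complex, switched on by WASP and WAVE proteins, starts branches on existing ones. Capping proteins stop growth at the fast-growing end, while plastin and fascin bundle filaments into protrusions. In dendritic cells this machinery shapes dendrites, antigen uptake and migration, and fascin is known as a marker of matured dendritic cells.

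The libraries held 17384033, 25725900 and 12090062 counts in Suz12 cKO cells, against 18656968 and 17041996 in wild type cells, with 9103 to 10220 genes detected in each. Counts are given below as CPM, each count scaled to a common library size after TMM normalisation for library composition. For a gene listed at 0, the limit that 3 counts set was 0.106 CPM in the deepest and 0.257 CPM in the shallowest library. Such limits and the counting intervals cover counting error only, because reads amplified with no molecular identifier do not stand for separate molecules. Suz12 itself was at 0, 0 and 0.60 CPM in Suz12 cKO cells, against 4.64 and 2.29 CPM in wild type cells, too low for a firm check of the deletion. One label names alveolar macrophages as the source, while the others name Langerhans cells of skin: Cd207, which encodes langerin, lay at 6613 to 14539 CPM in Suz12 cKO and at 7387 and 7554 CPM in wild type libraries, while of 5 alveolar macrophage markers Siglecf, Car4 and Chil3 were at 0 in all libraries. The other two were present: Krt79 lay at 97.8 to 177 CPM in Suz12 cKO and at 91.0 and 175 CPM in wild type libraries, and Marco was at 0 in Suz12 cKO and at 45.5 and 0.117 CPM in wild type libraries. The 10 keratinocyte markers summed to 584, 978 and 816 CPM in Suz12 cKO libraries, against 267 and 601 CPM in wild type libraries, and 8 of the 9 tested had a positive fold change. The T cell markers summed to 648, 202 and 181 CPM in Suz12 cKO and to 578 and 411 CPM in wild type libraries, and all 4 tested had a negative fold change. All 5 tested melanocyte markers did too, summing to 49.5, 33.0 and 144 CPM in Suz12 cKO and to 39.5 and 427 CPM in wild type libraries. Xist, which marks female cells, was at 0 except in wild type replicate 2, at 68.8 CPM. With the Y-linked Ddx3y, Kdm5d, Eif2s3y and Uty it summed to 167, 114 and 170 CPM in Suz12 cKO libraries. In wild type libraries the sums were 79.5 and 68.9 CPM. Where Xist was at 0, the sum came from the Y-linked genes alone. Wild type replicate 2 thus appeared female and the other libraries male. Sex was not balanced between the genotypes, and its part in the fold changes was not tested. In such bulk samples, fewer cells of a type and less RNA per cell cannot be told apart.

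The sequences of 2 pairs of close relatives are shown first, because counts of one relative can be read as the other only where their sequences match. The thymosins Tmsb4x and Tmsb10 have coding sequences of 135 bases (GENCODE vM21). The capitals mark the 40 bases at which they differ.
Tmsb4x: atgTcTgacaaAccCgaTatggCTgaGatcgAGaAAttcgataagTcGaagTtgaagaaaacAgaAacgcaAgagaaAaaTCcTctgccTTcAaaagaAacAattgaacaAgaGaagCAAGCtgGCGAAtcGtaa
Tmsb10: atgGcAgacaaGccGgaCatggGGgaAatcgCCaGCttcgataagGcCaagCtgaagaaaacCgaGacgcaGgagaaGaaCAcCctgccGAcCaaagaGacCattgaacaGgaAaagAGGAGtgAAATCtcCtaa
The longest stretch they share is 10 bases, so a read of 75 bases from the coding part of one cannot match the other in full. The actins are closer: over 1128 coding bases they differ at 128, and the longest shared stretch is 62 bases. Their first 60 coding bases differ at 9, again in capitals.
Actb: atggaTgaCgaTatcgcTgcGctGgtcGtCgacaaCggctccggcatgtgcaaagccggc
Actg1: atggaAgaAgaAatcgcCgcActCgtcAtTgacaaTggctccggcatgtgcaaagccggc

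No actin gene was called between the genotypes. None of the 36 tested genes passed an adjusted p of 0.05 in edgeR's quasi-likelihood test, where the smallest adjusted p was 0.968. The test called 0 of 9988 genes, or 0%, so this count says nothing particular about actin genes. At an unadjusted p under 0.05 stood 1 actin gene, Actb, against a background of 4.15% of all tested genes. DESeq2, run as an alternative, called none of the actin genes and 2.12% of the genes it adjusted. Fold changes were positive for 19 genes and negative for 17, with a median log2 fold change of 0.02 beside 0.06 over all tested genes. The one untested gene was Fscn1, which had too few counts.

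The estimates are informative only for the well expressed members. Of the 27 genes that averaged 100 CPM or more, 10 had a 95% interval of the log2 fold change that stayed within 1 in either direction, a change of less than 2-fold. They were Pfn1, Arpc3, Cfl1, Cdc42, Myl6, Tmsb10, Capzb, Arpc2, Actg1 and Capza2. The intervals do not cover the uncertainty from sequence that Myl6, Tmsb10 and Actg1 share with other genes, described below. Beyond 1 in either direction lay 2 fold changes, Wipf1 at 1.26 and Evl at -1.37, both at low counts with intervals from -3.54 to 6.06 and from -7.29 to 4.54. Neither estimate was stable: over the alternatives Wipf1 ran from -0.03 to 1.82 and Evl from -4.71 to -0.76.

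**Figure D1:**
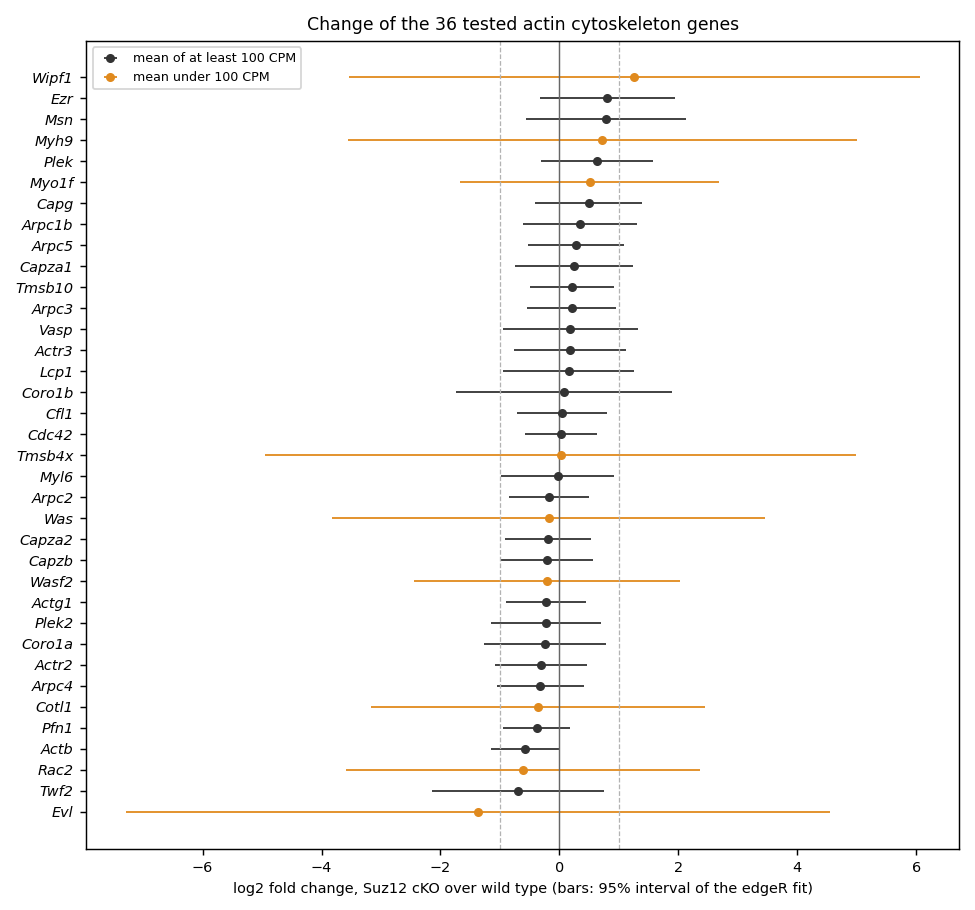
Log2 fold changes (Suz12 cKO over wild type, x axis) of the 36 tested actin cytoskeleton genes with their 95% intervals, with genes averaging 100 CPM or more in black and the others in orange. All intervals except that of Actb, which ends at -0.00, include 0, and those of the low genes are several times wider.

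Both cytoplasmic actins had negative fold changes, and Actb had the smallest p of the list. Actb, beta-actin, lies on chr5:142903115-142907976 (GRCm38, the assembly of mm10) and measured 2966, 2656 and 3383 CPM in Suz12 cKO cells, against 4556 and 4402 CPM in wild type cells. Each Suz12 cKO library was below both wild type libraries, so the groups did not overlap. The means were 3002 ± 365 CPM (SD, n = 3) and 4479 ± 109 CPM (SD, n = 2). This is a log2 fold change of -0.58 (SE 0.24) with an unadjusted p of 0.0497 and an adjusted p of 0.968 in edgeR, or a ratio of 0.670 with a 95% interval from 0.449 to 0.999. Over all alternatives the log2 fold change ran from -0.67 to -0.50 and the adjusted p from 0.164 to 1.

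Actg1, the gamma-actin gene on chr11:120345687-120348495, measured 362, 396 and 336 CPM in Suz12 cKO cells, against 482 and 368 CPM in wild type cells. Its groups overlapped, with a log2 fold change of -0.22 (SE 0.29). Per kilobase of gene length, Actb exceeded Actg1 by 8.21-, 6.72- and 10.1-fold in Suz12 cKO libraries and by 9.47- and 12.0-fold in wild type libraries. Beta-actin was thus the higher of both cytoplasmic actin transcripts in all 5. Of the muscle actins, Acta2 lay between 0.32 and 0.75 CPM except in wild type replicate 2, where it reached 39.0 CPM, and Acta1 was at 7.70 to 11.5 CPM. Acta1 shared 3 windows of 75 bases with Actb, and whether its counts include Actb reads was not tested.

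Among the genes that handle monomers, Pfn1 stood nearest to Actb. Pfn1 encodes profilin 1, which feeds actin monomers to growing ends, and lies on chr11:70651844-70656799. It measured 2314, 2304 and 2504 CPM in Suz12 cKO cells, against 2871 and 3306 CPM in wild type cells, again with no overlap. The means were 2374 ± 113 CPM (SD, n = 3) and 3088 ± 308 CPM (SD, n = 2), a log2 fold change of -0.38 (SE 0.24) with an unadjusted p of 0.156 and an adjusted p of 0.999 in edgeR. Actb and Pfn1 were the only 2 of the 36 tested actin genes (5.56%) with every Suz12 cKO library below both wild type libraries, a pattern seen in 10.2% of all tested genes. The reverse pattern occurred in 0 of them, against 8.87% of all tested genes.

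Cfl1, which encodes the main cofilin, was at 1006, 1656 and 1050 CPM in Suz12 cKO cells, against 1216 and 1189 CPM in wild type cells, a log2 fold change of 0.04 (95% interval from -0.71 to 0.79). The wild type values fell inside the range of the Suz12 cKO values, of which replicates 1 and 3 were below both wild type libraries and replicate 2 above both. Without replicate 2 the log2 fold change was -0.23. Twf2, a twinfilin that binds monomers and caps filaments, was at 81.9, 214 and 72.4 CPM in Suz12 cKO cells, against 122 and 275 CPM in wild type cells, and varied 3.80-fold between libraries. Cotl1, which encodes an actin-binding coactosin, was at 9.75 to 29.2 CPM in Suz12 cKO and at 11.9 and 34.5 CPM in wild type cells.

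The thymosins, which hold monomers in reserve, were split by level. Tmsb10 was at 339, 505 and 417 CPM in Suz12 cKO cells, against 370 and 356 CPM in wild type cells, a log2 fold change of 0.21 (SE 0.30). Tmsb4x had only 46, 26 and 4 counts in Suz12 cKO libraries, against 37 and 13 in wild type libraries. That is 2.87, 0.917 and 0.342 CPM, against 1.95 and 0.763 CPM. Per kilobase, Tmsb10 exceeded Tmsb4x 84.0-, 391- and 866-fold in Suz12 cKO libraries, and 135- and 331-fold in wild type libraries. Tmsb4x is widely known as an abundant transcript of leukocytes, so its near absence from these counts stands out. Its transcripts shared no 75-base window with those of other genes in GENCODE vM21, but copies elsewhere in the genome were not looked for. Whether reads were lost because they matched several places was not tested, so these folds rest on the counts as deposited.

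The Arp2/3 complex and its coronins formed the largest part of the list as chosen, with 5 of the 9 genes at a positive and 4 at a negative fold change. Arpc3, a small subunit and the highest of them per kilobase, was at 1428, 1009 and 862 CPM in Suz12 cKO cells, against 1018 and 888 CPM in wild type cells, a log2 fold change of 0.21 (SE 0.31). Arpc1b, the subunit isoform typical of blood cells, was at 1027, 2219 and 1104 CPM in Suz12 cKO cells, against 1095 and 1194 CPM in wild type cells. Suz12 cKO replicate 2 alone set its log2 fold change of 0.34, which was -0.11 without that library. Arpc5 was at 1419, 1229 and 950 CPM in Suz12 cKO cells and at 1232 and 747 CPM in wild type cells.

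The other subunits were lower and also overlapped between genotypes. Arpc2 lay at 306 to 345 CPM in Suz12 cKO and at 326 and 415 CPM in wild type cells, and Arpc4 at 451 to 682 CPM in Suz12 cKO and at 594 and 744 CPM in wild type cells. The actin-related proteins at the core, Actr2 and Actr3, lay at 163 to 172 CPM and 186 to 309 CPM in Suz12 cKO cells, against 169 to 243 CPM and 153 to 259 CPM in wild type cells. Although the subunits assemble in equal numbers, their counts per kilobase differed. The highest exceeded the lowest 37.9-, 31.7- and 21.6-fold in Suz12 cKO libraries and 18.1- and 22.7-fold in wild type libraries. The highest was Arpc1b in Suz12 cKO replicate 2 and Arpc3 in the other libraries, and the lowest was Actr2. These folds depend on gene length, which was 848 bases for Arpc3 and 3669 for Actr2. Their mean CPM over all libraries were 1041 and 183.

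Coronins bind filaments and the Arp2/3 complex. Coro1a, the leukocyte coronin, was at 479, 1171 and 570 CPM in Suz12 cKO cells, against 961 and 791 CPM in wild type cells. Suz12 cKO replicates 1 and 3 lay below both wild type libraries and replicate 2 above both, so that leaving out replicate 2 moved the log2 fold change to -0.74, against -0.24 with all libraries. Coro1b was at 180, 402 and 53.2 CPM in Suz12 cKO cells and at 155 and 245 CPM in wild type cells, a spread of 7.55-fold between libraries.

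**Figure D2:**
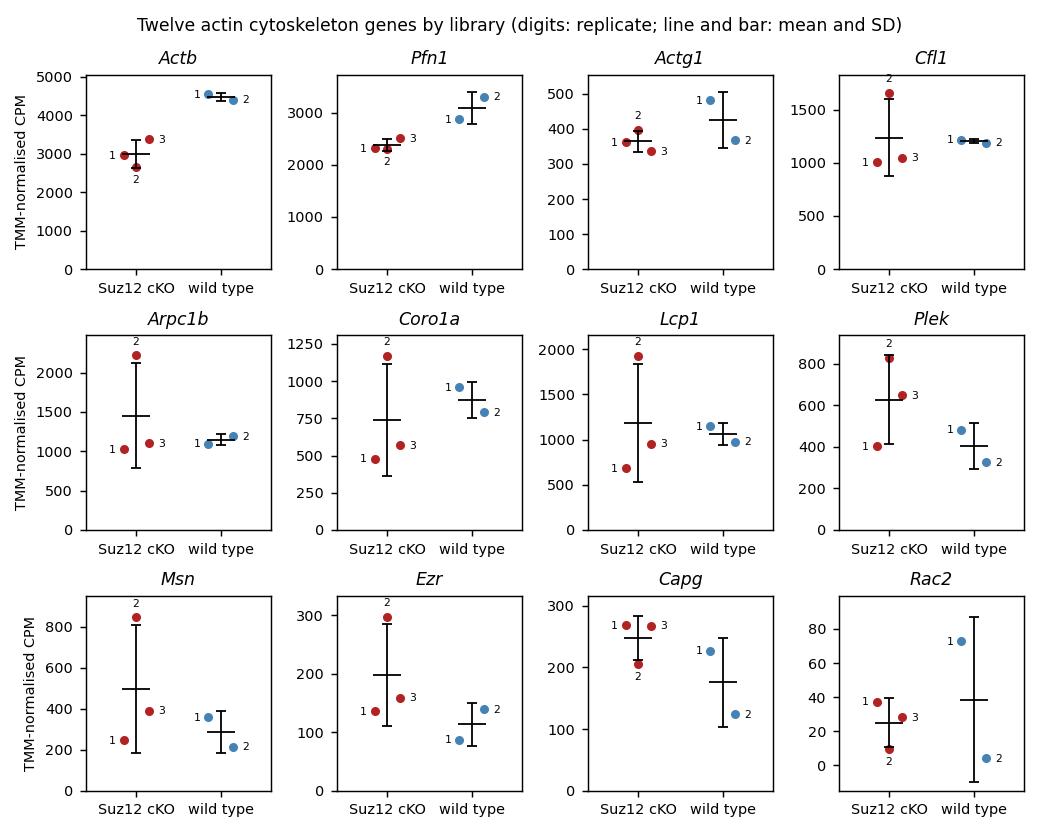
TMM-normalised CPM (y axis) of 12 actin cytoskeleton genes in each library, with digits for the replicate and lines and bars for the mean and SD of Suz12 cKO (left) and wild type (right). Only Actb and Pfn1 show groups that do not overlap, and Suz12 cKO replicate 2 is the highest library for Cfl1, Arpc1b, Coro1a, Lcp1, Plek, Msn and Ezr.

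The nucleation promoting factors, which switch on Arp2/3, were low. Wasf2, a WAVE protein and the highest of the 3 per kilobase, was at 35.2, 32.1 and 24.9 CPM in Suz12 cKO cells, against 61.3 and 9.98 CPM in wild type cells. The wild type libraries differed more from each other than from the Suz12 cKO libraries. Was, the haematopoietic WASP gene on the X chromosome, was at 13.0, 26.0 and 3.59 CPM in Suz12 cKO and at 19.2 and 12.9 CPM in wild type cells. Wipf1, which encodes a partner that stabilises WASP, was at 23.0, 18.9 and 1.28 CPM in Suz12 cKO and at 7.22 and 4.81 CPM in wild type cells.

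The capping protein genes overlapped between genotypes. Capzb, the beta subunit of capping protein, was at 296, 506 and 399 CPM in Suz12 cKO cells, against 442 and 483 CPM in wild type cells, a log2 fold change of -0.21 (SE 0.32). The alpha subunits Capza1 and Capza2 lay at 139 to 291 CPM and 262 to 376 CPM in Suz12 cKO cells, against 166 to 167 CPM and 345 to 406 CPM in wild type cells. Capg, a gelsolin relative that caps filaments without severing them, was at 268, 206 and 267 CPM in Suz12 cKO cells and at 227 and 124 CPM in wild type cells. Its log2 fold change of 0.49 (SE 0.38) had an unadjusted p of 0.233 and an adjusted p of 0.999 in edgeR. Leaving out wild type replicate 1 gave 0.997, and leaving out replicate 2 of the wild type gave 0.13.

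Of the bundling proteins, plastin was well expressed and fascin nearly absent. Lcp1, which encodes L-plastin of leukocytes, was at 682, 1926 and 957 CPM in Suz12 cKO cells, against 1151 and 976 CPM in wild type cells. Suz12 cKO replicate 2 was the highest and replicate 1 the lowest library. The log2 fold change was 0.16 (SE 0.46), and -0.38 without Suz12 cKO replicate 2. Fscn1, fascin, had 0, 7 and 2 counts in Suz12 cKO libraries, against 99 and 0 in wild type libraries. Its 5.22 CPM in wild type replicate 1 (95% exact Poisson interval from 4.24 to 6.35) was its only value above 0.25 CPM.

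The low Fscn1 stood beside other maturation genes that were present. The 6 genes of matured dendritic cells (Ccr7, Cd83, Cd86, Cd40, Relb and Ccl22) summed to 4852, 5904 and 5240 CPM in Suz12 cKO libraries, against 4446 and 2919 CPM in wild type libraries. Ccr7, with a mean of 157 CPM over all libraries, was a small part of these sums. All 6 had positive fold changes (median log2 0.54) and none was called. The elongation factors of the Ena/VASP family also differed in level. Vasp was at 122, 137 and 100 CPM in Suz12 cKO cells and at 148 and 62.8 CPM in wild type cells, while Evl was at 2.74, 16.6 and 0 CPM in Suz12 cKO cells, against 18.3 and 15.1 CPM in wild type cells.

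Of the myosin genes, only Myl6 was well expressed. Myl6, an essential light chain of nonmuscle myosin, was at 374, 182 and 374 CPM in Suz12 cKO cells, against 288 and 345 CPM in wild type cells, and Suz12 cKO replicate 2 was the lowest library. Myo1f, an unconventional myosin of leukocytes, was at 25.4, 200.1 and 38.8 CPM in Suz12 cKO cells, against 59.5 and 64.4 CPM in wild type cells. Here the same replicate was the highest. Myh9, the heavy chain of nonmuscle myosin IIA, was at 22.4, 4.23 and 16.8 CPM in Suz12 cKO cells and at 3.58 and 14.0 CPM in wild type cells.

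Of the 4 pleckstrin and membrane linker genes 3 had positive fold changes, which were smaller without Suz12 cKO replicate 2, and none was called. Ezr, ezrin, which ties filaments to the membrane, was at 137, 297 and 159 CPM in Suz12 cKO cells, against 87.6 and 139 CPM in wild type cells, a log2 fold change of 0.80 (SE 0.48). Msn, the related moesin, lies on the X chromosome and was at 247, 845 and 391 CPM in Suz12 cKO cells, against 358 and 216 CPM in wild type cells, a log2 fold change of 0.79 (SE 0.56). Plek, pleckstrin, a substrate of protein kinase C, was at 402, 827 and 648 CPM in Suz12 cKO cells, against 482 and 326 CPM in wild type cells, a log2 fold change of 0.63 (SE 0.39).

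In each of these 3, Suz12 cKO replicate 2 was the highest library, and at least 1 other Suz12 cKO library lay inside the wild type range. Without replicate 2 the log2 fold changes were 0.38 for Ezr, 0.15 for Msn and 0.38 for Plek. Their unadjusted p-values in edgeR were 0.138, 0.208 and 0.155, and each adjusted p was 0.999. Ezrin is also made by keratinocytes, whose markers summed highest in the same replicate (978 CPM, none of the 10 at 0), and their part in these values was not tested. Plek2, a pleckstrin relative, was at 412, 285 and 268 CPM in Suz12 cKO cells, against 494 and 260 CPM in wild type cells, a log2 fold change of -0.23 (SE 0.39).

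The GTPases showed a steady and a variable gene. Cdc42, which acts upstream of WASP, was at 2032, 2614 and 2167 CPM in Suz12 cKO cells, against 2144 and 2315 CPM in wild type cells. Its highest library was 1.29-fold above its lowest, and the log2 fold change was 0.03 with a 95% interval from -0.57 to 0.63. Rac2, the Rac of blood cells, was at 37.3, 9.66 and 28.4 CPM in Suz12 cKO cells, against 72.7 and 4.17 CPM in wild type cells. The 17.4-fold gap between its 2 wild type libraries was wider than any between a Suz12 cKO and a wild type library.

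Ordered by CPM per kilobase over all 5 libraries, Pfn1 came first at 3057 and Actb second at 1902. By mean CPM without scaling to length the order was reversed, with Actb at 3593 and Pfn1 at 2660 CPM. They ranked 39 and 61 of the 13470 genes with a count, and 19 of the 37 actin genes were among the top 1000. Next came Arpc3 at 1228, Cfl1 at 1033, Arpc1b at 856, Cdc42 at 750, Arpc5 at 588, Myl6 at 509, Coro1a at 497 and Tmsb10 at 421 CPM per kilobase. The lowest were Evl at 3.91, Wipf1 at 2.51, Tmsb4x at 2.04, Myh9 at 1.65 and Fscn1 at 0.423. For 6 of the 36 neighbouring pairs the log2 gap exceeded the larger SD of log2(CPM + 1) within a genotype. Of these, Pfn1 over Actb, Tmsb10 over Lcp1 and Actr3 over Capza1 kept that order in all 5 libraries. Actb over Arpc3, Actr2 over Myo1f and Myh9 over Fscn1 kept it in 4. The added 1 shrinks the SD of very low genes such as Fscn1, so its gap cannot be judged this way. For the other 30 pairs the gap stayed within that SD.

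**Figure D3:**
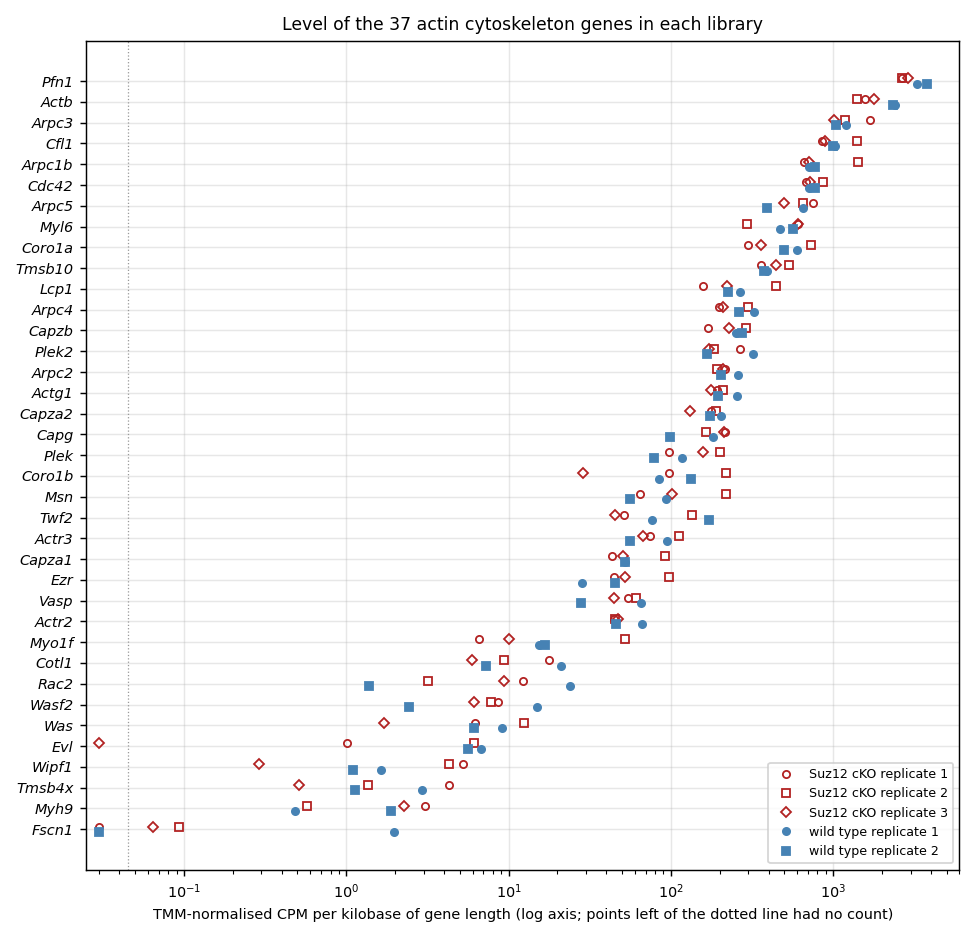
CPM per kilobase of gene length (x axis, log scale) of all 37 genes in each Suz12 cKO (open red) and wild type (filled blue) library, ordered by the mean over libraries. Levels run from 3057 for Pfn1 to 0.423 for Fscn1, and points left of the dotted line had no count.

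Suz12 cKO replicate 2, the most deeply sequenced library, stood apart for this gene set. It was the highest of the 5 libraries for 13 of the 27 actin genes averaging 100 CPM or more (48.1%), against 17.6% of all genes at that level. Wild type replicate 1 came next, as the highest for 8 of the 27 (29.6%), against 17.1% of all genes at that level. The 13 include Cfl1, Arpc1b, Coro1a, Lcp1, Plek, Msn and Ezr, but not Actb, Pfn1 or the other subunits Arpc2 to Arpc5. The 37 genes together took 1.70%, 2.65% and 1.81% of counts in Suz12 cKO libraries, against 2.28% and 2.09% in wild type libraries. Without Suz12 cKO replicate 2 the median log2 fold change of the actin genes was -0.19, against 0.02 with it. The median over all tested genes in the fit without that library was -0.01. Without wild type replicate 1 the median of the actin genes was 0.25, against 0.29 over all tested genes in that fit. Whether the difference of replicate 2 comes from the animal, the cells or the library was not tested.

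Spread between libraries followed level. The SD within a genotype of log2(CPM + 1) had a median of 0.39 over the 27 actin genes with at least 100 CPM, against 0.45 over the 1576 tested genes at that level. It ranged from 0.10 for Pfn1 to 1.22 for Coro1b. The 9 tested actin genes under 100 CPM had a median of 1.17.

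**Figure D4:**
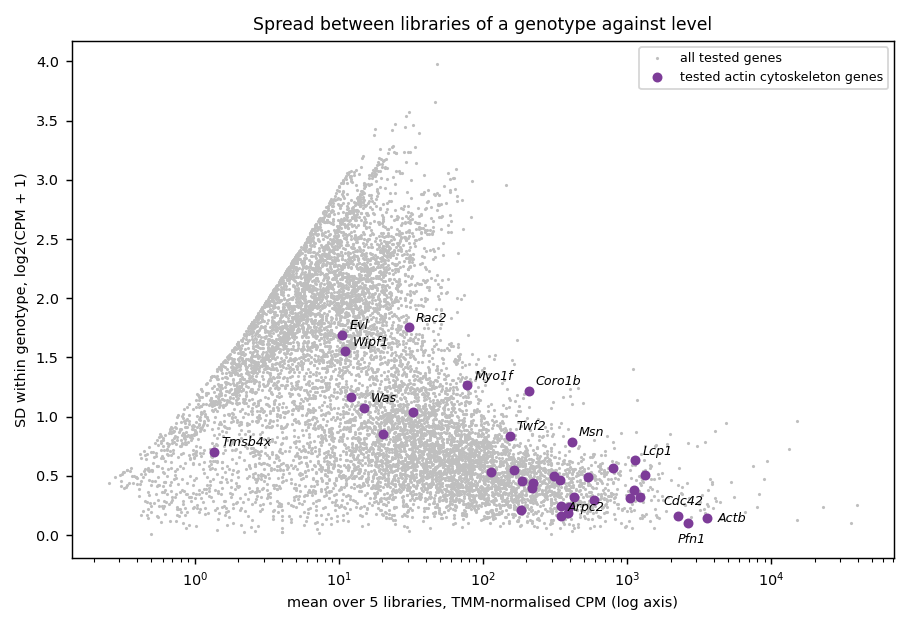
SD within genotype of log2(CPM + 1) (y axis) against mean CPM (x axis, log scale) for all tested genes (grey) and the 36 tested actin cytoskeleton genes (purple). Pfn1, Actb and Cdc42 are among the least variable actin genes, and Coro1b stands out at 1.22 for its level.

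Myl6 and Arpc1b share sequence with pseudogenes, here called copies, that were counted as genes of their own. Myl6 shares 75-base windows with the pseudogenes Gm5526 on chromosome 1, Gm10080 on chromosome 9 and Gm8894 on chromosome 14. Gm5526 was at 840, 392 and 840 CPM in Suz12 cKO cells, against 727 and 743 CPM in wild type cells, above Myl6 itself in every library. The ratio of Gm5526 to Myl6 was 2.25, 2.15 and 2.24 in Suz12 cKO libraries and 2.52 and 2.15 in wild type libraries, so the copy moved with the gene. With its 3 copies, Myl6 came to 1910, 913 and 1893 CPM in Suz12 cKO cells, against 1623 and 1661 CPM in wild type cells. The count of Myl6 alone is therefore an uncertain measure of its level. Suz12 cKO replicate 2 was also lowest in the sum, which is no separate evidence because the copies share windows with Myl6.

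Arpc1b likewise shares windows with the pseudogene Gm5637 on the X chromosome. Gm5637 was at 237, 521 and 246 CPM in Suz12 cKO cells, against 222 and 256 CPM in wild type cells, which is 0.231, 0.235 and 0.223 of Arpc1b in Suz12 cKO libraries and 0.203 and 0.215 in wild type libraries. Actb shares 45 windows with Lrrc58 on chromosome 16, which was at 289, 248 and 249 CPM in Suz12 cKO cells, against 354 and 337 CPM in wild type cells. Shared windows made up 68.5% of Capza1, 42.7% of Actg1, 30.0% of Actr3, 28.4% of Arpc1b, 19.3% of Tmsb10, 18.4% of Coro1b and 14.6% of Cfl1, but 2.18% of Actb and 0% of Pfn1. These windows are of different kinds. For Actg1 and Tmsb10 most were shared with a pseudogene on another chromosome. For Capza1 2076 of 2185 were shared with Gm3608, and for Actr3 815 of 854 with Gm8822. For Arpc1b 857 of 1043, for Coro1b all 358 and for Cfl1 323 of 377 were shared with transcripts of an adjoining gene on the same chromosome (Pdap1, Ptprcap and Snx32). Pdap1 lay at 47.6 to 123 CPM in Suz12 cKO and at 84.4 and 119 CPM in wild type libraries, Ptprcap at no more than 8.85 CPM and Snx32 at no more than 13.5 CPM in any library. How reads that match several genes were counted is not stated, so the values of Capza1, Actg1, Actr3, Arpc1b, Tmsb10 and Myl6 are uncertain.

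Other regulators of actin gave the same picture. Of 93 further genes of the pathway 78 were tested, of which 36 had a positive and 42 a negative fold change (median log2 -0.03), and edgeR called none. Every Suz12 cKO library was above both wild type libraries in 4 of the 78 (5.13%, against 8.87% of all tested genes) and below both in 6 (7.69%, against 10.2%). The 3 with the smallest p-values, Scin, Tpm4 and Lasp1, are all among the 4. Scin, scinderin, a severing protein of the gelsolin family, was at 61.7, 21.9 and 105 CPM in Suz12 cKO cells, against 8.91 and 4.29 CPM in wild type cells. All Suz12 cKO libraries were above both wild type libraries, and the log2 fold change was 3.25 (SE 0.97) with an adjusted p of 0.968 in edgeR and 0.0462 in DESeq2. Of the 78, Scin alone was called by DESeq2 (1.28%, against 2.12% of all genes it adjusted).

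The next smallest p-values belonged to Tpm4 and Lasp1. Tpm4, a tropomyosin that coats filaments, was at 185, 192 and 233 CPM in Suz12 cKO cells, against 99.6 and 136 CPM in wild type cells, a log2 fold change of 0.79 (SE 0.35, adjusted p of 0.968 in edgeR). Lasp1, a LIM and SH3 protein of focal contacts, was at 44.2, 73.4 and 65.9 CPM in Suz12 cKO cells, against 38.6 and 24.5 CPM in wild type cells, a log2 fold change of 0.95 (SE 0.60). The 6 genes with every Suz12 cKO library below both wild type libraries were Brk1, Cap1, Coro7, Myl12b, Arhgdib and Dock8.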

How the data were processed

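Polyadenylated RNA of 5000 cells a library was reverse transcribed with a Takara kit for very small inputs, per the labels' protocols, and sequenced as paired reads of 75 bases, per the design text, which calls the replicates biological. The authors deposited raw counts per gene and gene lengths. The submitters' processing notes name featureCounts and mm10, while the sources used here do not give the aligner, versions, strand use or treatment of multiply matching reads. The 5 files per sample were identical to the series table. Symbols came from RefSeq (GRCm38.p6) for 25275 of 27179 identifiers; 1 symbol of the lists was unmatched. No 2 libraries of a genotype agreed within counting noise (chi-square per degree of freedom 182 to 410).

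All genes were fitted in edgeR 4.0.16 (R 4.3.3; filterByExpr at a minimum count of 10, TMM, robust quasi-likelihood F test, Benjamini-Hochberg, threshold 0.05). Log2 fold changes are Suz12 cKO minus wild type. SE is the log2 fold change over the square root of F. The alternatives were DESeq2 1.42.0, RLE factors, limma-voom (limma 3.58.1), no filter, a minimum count of 50, a term for how the sample titles are written, a replicate block, each library left out, and edgeR with its legacy setting off, which was chosen after seeing the data. The edgeR fit was also run on simulated counts, whose outcome is not given here. On the real counts its common biological coefficient of variation, a measure of spread between libraries of a genotype, was 1.39. Shared windows are the 75-base windows of a gene's transcripts found in transcripts of other genes on either strand (GENCODE vM21). Members and lists were chosen with earlier results of these data known. The rule gave values per library for the highest gene of each role per kilobase, the 6 smallest p-values, untested genes and the 3 smallest p-values of the other regulators; further genes, the copies, neighbouring genes and the muscle actins were chosen after their values were seen.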

Additional observations from a re-analysis of the deposited data

How the results depend on the processing

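No actin gene was called under any of the 13 alternatives. Over all genes DESeq2 called 191 and the fit with a replicate block called 1 (Il10), against 0 in the other fits. Libraries with the same replicate number had correlations of deviations of -0.0269 and -0.0246. With 2 wild type libraries the deviations mirror each other, so these values cannot show whether libraries were paired. The block is therefore not read as a paired result. DESeq2 called 1 of the other regulators, Scin. The median log2 fold change of the actin genes ran from -0.19 to 0.25 when 1 library was left out, beside -0.01 to 0.37 over all tested genes. Of the 36 tested genes, 14 kept their sign in all alternatives and 27 in those that kept all libraries, wherever they were tested. With all libraries the sign turned with limma-voom for Tmsb4x (-0.30), Coro1b (-0.076) and Wasf2 (0.26). With the replicate block it turned for Was (0.22), Wasf2 (0.44), Cotl1 (0.060) and Rac2 (0.12). With the title style it turned for Cfl1 (-0.0036), Tmsb4x (-0.52), Coro1b (-0.51), Wipf1 (-0.028) and Myl6 (0.020), and without the legacy setting, chosen after seeing the data, for Tmsb4x (-0.033) and Was (0.067). With 1 library left out, log2 fold changes that turned ran from -1.06 to 0.85 for Tmsb4x, -0.0059 to 0.35 for Arpc3, -0.74 to 0.017 for Coro1a, -0.23 to 0.19 for Cfl1, -0.11 to 0.56 for Arpc1b, -0.14 to 0.61 for Actr3, -0.79 to 0.56 for Coro1b, -0.15 to 0.47 for Capza1, -0.38 to 0.46 for Lcp1, and -0.95 to 0.98 for Myo1f. They ran from -0.19 to 0.24 for Myl6, -0.088 to 0.12 for Cdc42, -0.96 to 0.30 for Was, -0.34 to 0.011 for Arpc2, -0.99 to 1.63 for Wasf2, -0.62 to 0.31 for Plek2, -0.94 to 0.61 for Cotl1, -1.54 to 2.59 for Rac2, -0.036 to 0.69 for Arpc5, -0.30 to 0.94 for Vasp, and -1.37 to 0.025 for Twf2. Without a change of sign, Evl ran from -4.71 (title style) to -0.76 (without Suz12 cKO replicate 3), with -3.48 in limma-voom, and Msn from 0.15 to 1.20, Ezr from 0.38 to 1.19, Plek from 0.38 to 0.95 and Capg from 0.13 to 0.997. The cause was not tested. The 10 highest genes per kilobase were the same in every library except Suz12 cKO replicate 2, which shared 9. Under 100 CPM the depth and the 5 libraries limit what can be told of a change.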
